A study of Mus musculus with 8 samples.

Results

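Mitochondrial ribosomal proteins are the nuclear-encoded proteins of the ribosome inside mitochondria. Their genes were taken as all array genes whose single annotated symbol begins Mrpl (large subunit) or Mrps (small subunit) followed by a number, pseudogenes left out, with the probe set of the highest mean standing for a gene that had several. That gave 71 of the 22180 genes measured, 43 Mrpl and 28 Mrps genes. The values are log2 intensities after RMA, so a difference of 1 is a 2-fold difference, on the cardiac left ventricle of female C57BL/6 mice of 3 to 4 months. There were 8 arrays, 2 for each of 4 reproductive states: mice in diestrus, a non-pregnant phase of the estrous cycle (replicates 2 and 3), mice on day 12 of pregnancy (replicates 2 and 3), mice on day 19 (replicates 1 and 2, given as 18 or 19 days in the protocol) and mice 1.5 days after giving birth (replicates 2 and 4). All were of one strain, with no engineered allele and no agent given. The study set the 3 later states against diestrus, and each array came from RNA of one piece of a ventricle.

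Mitochondria keep a small genome that encodes a few core subunits of the respiratory chain, and a ribosome of bacterial ancestry translates its messages. The proteins of that ribosome are made in the cytosol and imported, where they assemble on ribosomal RNA transcribed from mitochondrial DNA. The small subunit reads the message and the large subunit joins the amino acids and feeds the new, hydrophobic chain to the inner membrane. Heart muscle is packed with mitochondria and depends on this ribosome for its supply of respiratory chain complexes. Symbols can mislead here: structures have since placed Mrps30 and Mrps18a in the large subunit, and Mrps36 is now known as a protein of the 2-oxoglutarate dehydrogenase complex.

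Of the 71 genes, 69 passed the filter on dim genes, a mean of at least 5.19 (the median of all values) in at least 1 state. Mrpl27 and Mrps36 did not pass and were not tested, with values of 4.15 to 4.82 and 4.83 to 5.15 over the 8 arrays. The reference gene table held 78 coding genes of these names, and 7 of them (Mrpl30, Mrpl33, Mrpl41, Mrpl43, Mrpl44, Mrpl53 and Mrps6) had no probe set of their own, only one shared with another gene. None of the mitochondrially encoded RNAs that were looked for had a single-symbol probe set.

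The label of the tissue was checked against markers of heart muscle. All 11 cardiomyocyte markers, among them Myh6 and Tnnt2, were measured and stood above the median of all values on every array. Their mean level was 11.9 to 12.2. This checks for heart muscle and not for the chamber of the heart. One array stood apart. Day 19 replicate 2 correlated with the other arrays at 0.969 to 0.977 over all probe sets, against 0.98 to 0.992 among the other 7. On that array macrophage markers averaged 1.25 above their diestrus mean on the log2 scale (9 of 10 above it), MHC class II genes 2.43 (5 of 5) and interferon response genes 2.36 (7 of 8), while fibroblast markers averaged -0.62 (0 of 7 above), endothelial markers -0.45 (1 of 6) and cardiomyocyte markers -0.19 (0 of 11). Day 19 replicate 1 had the highest atrial markers, 2.20 above their diestrus mean (6 of 7), and the highest mesothelial markers, 1.07 above (6 of 6). Atrial markers were also high on day 12 replicate 3 (0.84, 5 of 7) and diestrus replicate 3 (0.41, 5 of 7). On the remaining arrays they averaged between -0.53 and -0.41. The atrial marker Myl7 had 10.04 on day 12 replicate 3, and 8.24 and 5.12 on diestrus replicates 3 and 2, so the diestrus arrays differed in this. In whole tissue, fewer cells of a type and less RNA per cell cannot be told apart. The labels do not say which animals the arrays came from, so a p-value here measures the spread between these samples only.

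The promoters of a few members are shown because NRF1 and ETS factors such as GABP are known to bind near the start of many nuclear genes for mitochondrial proteins. Of the 69 tested members, 60 matched a window in the RefSeq promoter table (build GRCm38.p6), which runs from 250 bases before to 50 bases after a gene's start. Both strands were searched for the NRF1 element, GCGC followed by any base and then TGCGC, and for the ETS element, CCGGAAG. Matches are in capitals, and positions count from 1 at the start base, with negative numbers before it. The first 4 windows belong to the members with the smallest F-test p that had a window, and Mrpl32 was added after its values were seen, because it differed most between post-partum arrays. The windows are those of Mrpl55 (chr11:59202236-59202535, plus strand), Mrps21 (chr3:95871465-95871764, minus strand), Mrps14 (chr1:160194965-160195264, plus strand), Mrps18b (chr17:35916391-35916690, minus strand) and Mrpl32 (chr13:14612988-14613287, minus strand), each written 5′ to 3′ on the gene's strand.

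Mrpl55: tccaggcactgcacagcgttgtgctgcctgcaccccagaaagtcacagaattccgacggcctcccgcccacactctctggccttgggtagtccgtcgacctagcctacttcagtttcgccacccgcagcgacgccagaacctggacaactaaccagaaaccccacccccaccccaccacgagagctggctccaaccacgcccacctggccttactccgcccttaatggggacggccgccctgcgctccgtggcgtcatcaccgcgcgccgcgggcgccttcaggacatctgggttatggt

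Mrps21: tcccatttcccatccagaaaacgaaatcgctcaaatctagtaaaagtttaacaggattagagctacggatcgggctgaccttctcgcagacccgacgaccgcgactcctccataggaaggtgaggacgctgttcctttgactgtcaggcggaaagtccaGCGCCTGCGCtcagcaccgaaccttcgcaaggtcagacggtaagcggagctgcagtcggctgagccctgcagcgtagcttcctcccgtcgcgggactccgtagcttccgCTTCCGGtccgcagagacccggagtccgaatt

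Mrps14: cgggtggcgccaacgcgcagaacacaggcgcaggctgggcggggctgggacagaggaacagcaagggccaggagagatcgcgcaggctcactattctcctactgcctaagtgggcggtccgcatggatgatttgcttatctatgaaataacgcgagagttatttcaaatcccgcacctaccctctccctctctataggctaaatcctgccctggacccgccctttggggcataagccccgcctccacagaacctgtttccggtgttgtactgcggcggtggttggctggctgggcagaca

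Mrps18b: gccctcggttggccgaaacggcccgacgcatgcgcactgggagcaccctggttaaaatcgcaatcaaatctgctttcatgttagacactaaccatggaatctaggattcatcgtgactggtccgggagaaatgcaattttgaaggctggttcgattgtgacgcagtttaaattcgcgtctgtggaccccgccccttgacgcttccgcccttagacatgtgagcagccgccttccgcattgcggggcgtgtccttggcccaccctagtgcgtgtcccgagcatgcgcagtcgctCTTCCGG

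Mrpl32: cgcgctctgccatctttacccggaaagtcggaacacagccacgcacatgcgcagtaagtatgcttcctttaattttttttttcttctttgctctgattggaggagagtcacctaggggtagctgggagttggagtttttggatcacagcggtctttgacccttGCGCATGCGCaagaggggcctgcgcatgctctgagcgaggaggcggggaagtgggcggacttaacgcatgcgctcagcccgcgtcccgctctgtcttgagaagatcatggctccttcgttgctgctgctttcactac

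Mrps21 held both elements, the NRF1 element from base -91 and the ETS element from base 19. Mrps18b held an ETS element from base 44 and Mrpl32 an NRF1 element from base -87. Mrpl55 and Mrps14 held neither set of letters in this window. No match overlapped another.

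Over the 60 windows, the NRF1 element was found in 11 (18.3%) and the ETS element in 22 (36.7%), with 4 members holding both and 31 neither. Among the 10898 windows of all genes tested the shares were 10.1% and 17.4%, and among all 27025 listed windows they were 5.19% and 9.93%. The ETS element was in 11 of 36 large subunit windows and 11 of 24 small subunit windows, and the NRF1 element in 8 and 3. The median GC content of the members' windows was 58.2%, against 60.7% for all genes tested.

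No mitochondrial ribosomal protein gene passed the threshold in any of the 5 comparisons. In limma's moderated test with Benjamini-Hochberg adjustment over 13872 genes, 0 of 69 members and 0% of all genes had an adjusted p under 0.05, in the F test over the 3 comparisons with diestrus as well as in each comparison. With array weights or with a trended and robust variance the count of members was also 0. A p that misses the threshold does not show that the values were equal: the median moderated standard error was 0.18 for the members and 0.17 for all genes, on the log2 scale. What the members did show was mostly small differences. On some arrays these ran mainly one way, while on post-partum replicate 2 they spread in both directions. Against each gene's diestrus mean, 56 and 43 of the 69 members were higher on day 12 replicates 2 and 3, 47 and 12 on day 19 replicates 1 and 2, and 43 and 53 on post-partum replicates 2 and 4. The same shares over all genes were 55.8% and 53% at day 12, 54.5% and 40.7% at day 19, and 49.6% and 50.3% post-partum. Diestrus replicates 2 and 3 themselves had 41 and 28 of the 69 members above that mean, against 51.8% and 48.2% of all genes. The 43 on day 12 replicate 3 and on post-partum replicate 2 lay close to the 41 of diestrus replicate 2. The average member stood 0.10 and 0.023 above diestrus on the day 12 arrays, 0.056 and -0.24 at day 19, and 0.032 and 0.10 post-partum, so the day 19 replicate 2 value was the one furthest from diestrus.

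**Figure D1:**
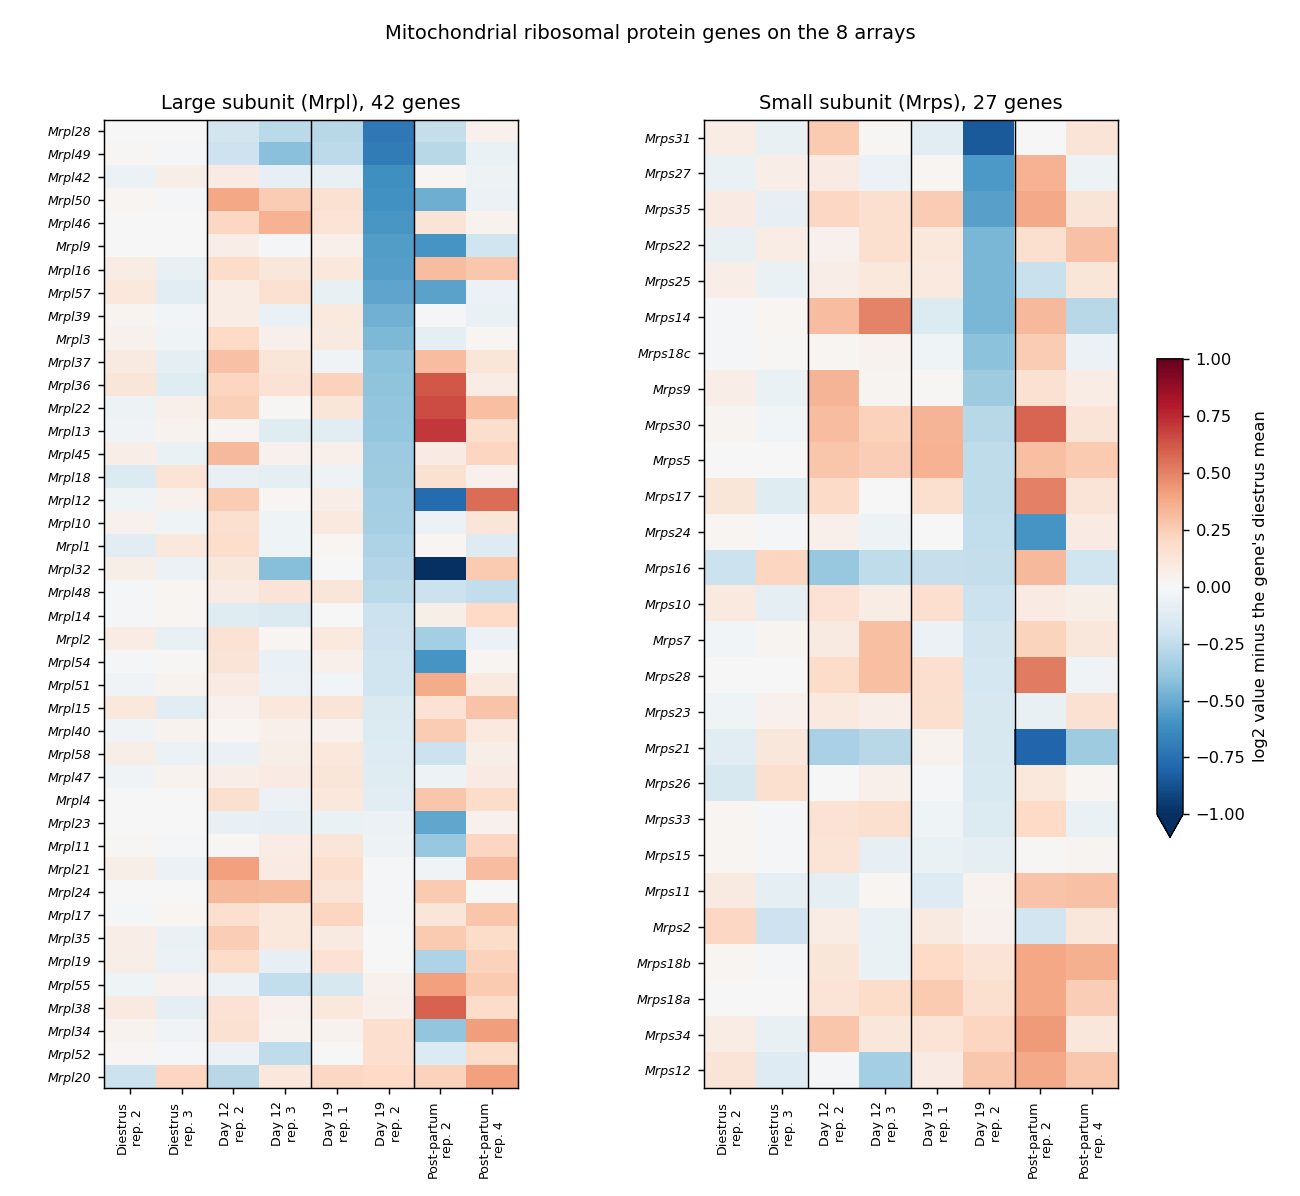
Each row is one of 42 Mrpl genes (left) or 27 Mrps genes (right), by gene name and ordered by day 19 replicate 2, and each column is one of the 8 arrays. Colour gives the log2 value minus the gene's diestrus mean, from -1 (blue) to 1 (red), and Mrpl32 on post-partum replicate 2 lies below the scale at -2.03. The column of day 19 replicate 2 is blue for 57 of the 69 genes, and the column of post-partum replicate 2 holds both the deepest blue and the deepest red.

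Members at day 12 of pregnancy were mostly above diestrus, by a small margin. Of the 69 tested members, 54 were higher and 15 lower, with a median log2 fold change of 0.074, where 55.1% of all genes were higher and 44.9% lower, and their median was 0.017. Without day 12 replicate 2, 43 members were higher and the median was 0.034, and without replicate 3 these were 56 and 0.12. With the arrays centred on their medians, 48 were higher and 21 lower, where 49.9% of all genes were higher. Both day 12 arrays lay above both diestrus arrays for 24 members (34.8%), against 21.7% of all genes, and below both for 8 (11.6%), against 15.6%. An unadjusted p under 0.05 was found for 0 members, where 2.31% of all genes had one.

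Mrps14, a protein in the head of the small subunit with a bacterial counterpart, had the largest positive difference. It stood at 5.59 and 5.78 at day 12, against 5.27 and 5.30 in diestrus. Both day 12 values lay above both diestrus values, a difference of 0.40 ± 0.21 (SE, n = 2 per group) or 1.32-fold in limma (adjusted p = 0.9999). Mrpl24, a large subunit protein at the mouth of the exit tunnel, had 9.03 and 9.03 at day 12, against 8.70 and 8.71 in diestrus. The arrays of each state were almost identical and the difference was 0.32. Mrpl50 (0.32) and Mrpl46 (0.28), proteins that bacterial ribosomes lack, were next, each higher on both arrays.

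The lowest members at day 12 were of both subunits. Mrpl49, which the bacterial ribosome lacks, had 8.47 and 8.26 at day 12, against 8.69 and 8.67 in diestrus, a difference of -0.31 (-0.20 without day 12 replicate 3). Mrps21, a small subunit protein with a bacterial counterpart, had 7.69 and 7.74, against 7.90 and 8.12 in diestrus (-0.30, and -0.19 without diestrus replicate 3). Mrpl28 had 7.71 and 7.63, against 7.90 and 7.89 in diestrus (-0.23). For these 3 genes the states did not overlap. Nor did they for Mrps16, which had 6.81 and 6.94 at day 12, against 6.98 and 7.40 in diestrus. Its difference of -0.31 was -0.10 without diestrus replicate 3, and its other, dimmer probe set gave 0.11.

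At day 19 the direction of the members depended on the array. With both arrays, 17 members were higher than diestrus and 52 lower, with a median of -0.085, where 44.5% of all genes were higher and 55.5% lower, and their median was -0.029. Centred on their medians, the arrays gave 24 higher and 45 lower. Without replicate 2, 47 members were higher and the median was 0.086. Without replicate 1, 12 were higher and the median was -0.22. Both day 19 arrays lay above both diestrus arrays for 4 members (5.8%), against 16.4% of all genes, and below for 12 (17.4%), against 20.4%. An unadjusted p under 0.05 was found for 2 members, both lower (Mrpl28 and Mrpl49), against 7.29% of all genes. Without replicate 1, 3 of 69 members (4.35%) passed the adjusted threshold as lower, Mrps31, Mrpl28 and Mrpl49, against 9.27% of all genes, with the one remaining day 19 array assumed to vary like the other states.

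Mrpl28, a large subunit protein with a bacterial counterpart, had 7.62 and 7.18 on day 19 replicates 1 and 2, against 7.90 and 7.89 in diestrus. Both arrays were below diestrus, a difference of -0.50 ± 0.18 (SE, n = 2 per group) or 0.71-fold (limma, adjusted p = 0.6574), and -0.28 without replicate 2. Mrpl49 had 8.41 and 7.98, against 8.69 and 8.67 in diestrus, a difference of -0.48 that was -0.26 without replicate 2. Mrpl28 and Mrpl49 were lower than diestrus on both arrays of day 12 and of day 19 alike.

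Mrps31, a small subunit protein that bacteria lack, had 7.60 and 6.87 on day 19 replicates 1 and 2, against 7.78 and 7.63 in diestrus. Its difference of -0.47 lay mostly in replicate 2 and was -0.11 without it. Mrpl42 likewise had 10.45 and 9.91, against 10.46 and 10.58 in diestrus (-0.34, and -0.074 without replicate 2). On day 19 replicate 2, 11 members were more than 0.5 below their diestrus mean and 0 more than 0.5 above it. Together they were 15.9% of the tested members, against 21.1% of all genes that lay this far from diestrus in either direction. Besides these 4 they were Mrpl9, Mrpl16, Mrpl46, Mrpl50, Mrpl57, Mrps27 and Mrps35.

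The 12 members above diestrus on day 19 replicate 2 were Mrpl19, Mrpl20, Mrpl34, Mrpl38, Mrpl52, Mrpl55, Mrps2, Mrps11, Mrps12, Mrps18a, Mrps18b and Mrps34. Mrps18a had the largest positive difference over both arrays, 0.21, with 8.56 and 8.46 at day 19, against 8.30 and 8.30 in diestrus. Mrps34 had 7.32 and 7.39, against 7.25 and 7.10 in diestrus (0.18, and 0.11 without diestrus replicate 3), and the states did not overlap for either gene. Mrps12, a protein of the decoding centre, gave 0.18 and Mrpl20 gave 0.21. Both overlapped diestrus. Mrps12 was 0.049 without diestrus replicate 3, and Mrpl20 was -0.0085 without diestrus replicate 2.

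Post-partum, 47 members were higher and 22 lower than diestrus, with the small subunit genes mostly higher. The median was 0.083, where 49.4% of all genes were higher and 50.6% lower, with a median of -0.0037. By subunit, 23 Mrps genes were higher and 4 lower (median 0.11), and 24 Mrpl genes were higher and 18 lower (median 0.029). Both post-partum arrays lay above both diestrus arrays for 29 members (42%), against 21.1% of all genes, and below for 5 (7.25%), against 21.7%. An unadjusted p under 0.05 was found for 5 members, 4 higher and 1 lower, against 6.62% of all genes.

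Mrps18b, one of 3 Mrps18 paralogs and a small subunit protein, had 8.72 and 8.69 post-partum, against 8.35 and 8.32 in diestrus. The post-partum arrays were its highest and lay close together, a difference of 0.37 ± 0.13 (SE, n = 2 per group) or 1.29-fold (limma, adjusted p = 0.7222). A further probe set of Mrps18b gave 7.97 and 8.20 post-partum, against 7.65 and 7.66 in diestrus (0.43). Mrpl55 had 9.54 and 9.39 post-partum, against 9.08 and 9.17 in diestrus (0.34), and its post-partum arrays were the highest of the 8.

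Mrpl13, a large subunit protein with a bacterial counterpart, had 9.08 and 8.54 post-partum, against 8.33 and 8.40 in diestrus (0.44, and 0.17 without post-partum replicate 2). Mrpl22, which lines the exit tunnel, had the largest positive difference, 0.48, with 6.97 and 6.63 post-partum and 6.27 and 6.37 in diestrus, and 0.30 without post-partum replicate 2. Mrpl38, a protein of the central protuberance, had 9.61 and 9.21, against 9.11 and 8.94 in diestrus (0.39, and 0.19 without post-partum replicate 2). In all 3 genes both post-partum arrays were above both diestrus arrays, and replicate 2 was the higher of the pair.

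Mrps21 was the member with the smallest unadjusted p post-partum. It had 7.22 and 7.66 post-partum, against 7.90 and 8.12 in diestrus. Both arrays were below diestrus, a difference of -0.57 ± 0.18 (SE, n = 2 per group) or 0.67-fold (limma, adjusted p = 0.7222), and -0.36 without post-partum replicate 2. Mrpl9 had 7.75 and 8.14, against 8.34 and 8.33 in diestrus (-0.39, and -0.20 without post-partum replicate 2). Mrpl57, which bacteria lack, had 8.30 and 8.78, against 8.94 and 8.73 in diestrus (-0.30). Its post-partum arrays lay on either side of diestrus replicate 3, and without post-partum replicate 2 the difference was -0.056.

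Mrpl32, a large subunit protein that is trimmed by the mitochondrial m-AAA protease before it joins the ribosome, had the lowest log2 fold change post-partum. It stood at 5.48 and 7.77 post-partum, against 7.57 and 7.45 in diestrus. The low value was that of replicate 2 alone, so the difference of -0.88 ± 0.62 (SE, n = 2 per group; limma, adjusted p = 0.7519) was 0.26 without it.

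**Figure D2:**
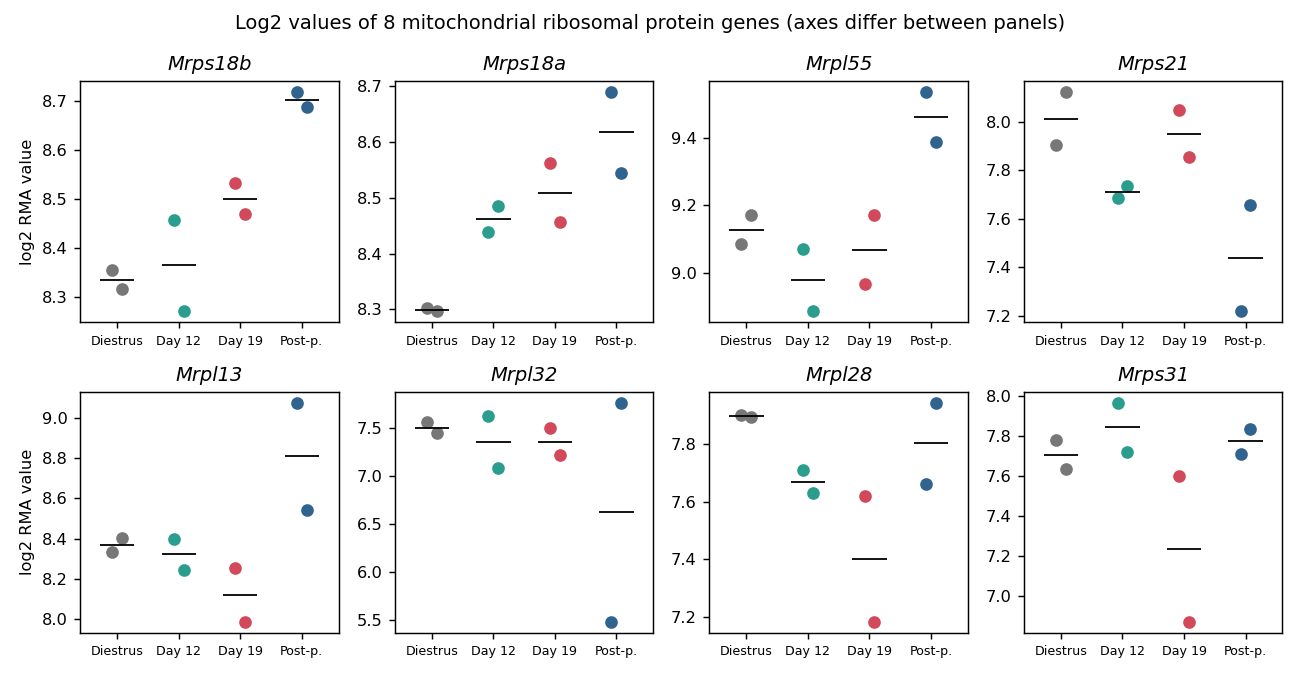
Log2 values of 8 members in the 4 states, with the lower replicate number drawn on the left in each state, a bar at the mean of the 2 arrays, and axes that differ between panels. Both post-partum arrays of Mrps18b, Mrps18a and Mrpl55 lie above both diestrus arrays, those of Mrps21 lie below, and Mrpl32 is low on 1 post-partum array only (5.48).

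Of the members, 2 were above both diestrus arrays on all 6 later arrays, Mrps18a and Mrps34 (2.9% of 69, against 3.61% of all genes). For 1 member, Mrpl49, all 6 were below (1.45%, against 3.84%). Mrps18a had 8.30 and 8.30 in diestrus, 8.44 and 8.49 at day 12, 8.56 and 8.46 at day 19, and 8.69 and 8.55 post-partum. The differences from diestrus were 0.16, 0.21 and 0.32, each with a standard error of 0.13. Mrps34 gave 0.19, 0.18 and 0.27, but a probe set shared between Mrps34 and Nme3 had 7.93 and 8.74 post-partum, against 8.62 and 8.82 in diestrus.

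The Mrps18 paralogs are 3 proteins related to one bacterial protein that sit in different places, Mrps18a in the large subunit and Mrps18b and Mrps18c in the small. Mrps18c, the one at the bacterial position, had 6.92 and 6.94 in diestrus, 6.95 and 6.96 at day 12, 6.89 and 6.52 at day 19, and 7.18 and 6.87 post-partum. It was below diestrus at day 19 by -0.22, and by -0.040 without day 19 replicate 2, while its other, dimmer probe set gave 0.44, so the probe sets disagreed in direction. Mrps30, a large subunit protein by structure, had 7.41 and 7.35 in diestrus, 7.69 and 7.61 at day 12, 7.72 and 7.10 at day 19, and 7.96 and 7.51 post-partum. Its differences were 0.27, 0.033 and 0.36, and 0.13 post-partum without post-partum replicate 2.

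Mrps5, a small subunit protein near the message entry, had 7.64 and 7.65 in diestrus, 7.92 and 7.89 at day 12, 7.99 and 7.39 at day 19, and 7.95 and 7.91 post-partum. Apart from day 19 replicate 2, all its later arrays were above diestrus, by 0.26 at day 12 and 0.28 post-partum. A further, dimmer probe set of Mrps5 gave -0.012 at day 12 and 0.14 post-partum, and was highest on diestrus replicate 3 (4.89). Mrpl58, a peptidyl-tRNA hydrolase built into the large subunit that frees stalled chains, varied little, with a range of 8.25 to 8.58 over the 8 arrays and differences from diestrus between -0.077 and -0.0047. Mrpl12, the stalk protein that also binds mitochondrial RNA polymerase, had 8.89 and 8.98 in diestrus, 9.19 and 8.96 at day 12, 9.0 and 8.60 at day 19, and 8.17 and 9.50 post-partum. Its lowest and highest arrays were thus both post-partum, while its other, dimmer probe set had 5.39 and 5.42 post-partum, against 4.85 and 5.24 in diestrus.

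The successive stages put day 19 below day 12 and post-partum above day 19. At day 19, 14 members were higher and 55 lower than at day 12 (median -0.14, against -0.042 for all genes, of which 42.8% were higher and 57.2% lower). Both day 19 arrays were above both day 12 arrays for 7 members, against 16.3% of all genes, and below for 16 (23.2%), against 23.2%. Without day 19 replicate 2 the split was 38 members higher and the median 0.0089. An unadjusted p under 0.05 was found for 3 members, all lower, against 6.47% of all genes. Mrps14 had 5.15 and 4.83 at day 19, against 5.59 and 5.78 at day 12, a difference of -0.70, and Mrps31 one of -0.61 (-0.24 without day 19 replicate 2). Mrps12 had the highest difference, 0.35, with 6.17 and 6.36 at day 19, against 6.07 and 5.74 at day 12, and it was 0.19 without day 12 replicate 3. Mrpl20 was next at 0.29, with 6.17 and 6.16 at day 19, against 5.68 and 6.07 at day 12, and it was 0.098 without day 12 replicate 2. Without day 19 replicate 1, 6 members passed the adjusted threshold, all lower (8.7%, against 9.72% of all genes).

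Post-partum, 54 members were higher and 15 lower than at day 19, with a median of 0.15, against 0.013 for all genes, of which 52.3% were higher and 47.7% lower. Both post-partum arrays were above both day 19 arrays for 27 members (39.1%), against 19% of all genes, and below for 1 (1.45%), Mrps21, against 14.3%. Without day 19 replicate 2, 40 members were higher and the median was 0.069. An unadjusted p under 0.05 was found for 8 members, 7 higher and 1 lower, against 8.25% of all genes. Mrpl13 had 9.08 and 8.54 post-partum, against 8.25 and 7.99 at day 19. The difference was 0.69 ± 0.20 (SE, n = 2 per group) or 1.61-fold (limma, adjusted p = 0.5888), and 0.42 without post-partum replicate 2. Mrpl22 gave 0.62 (0.36 without day 19 replicate 2) and Mrpl55 gave 0.40. At the low end Mrps21 gave -0.51 and Mrpl32 -0.74 (-0.29 and 0.41 without post-partum replicate 2). Without day 19 replicate 1, 6 members passed the adjusted threshold, all higher, Mrpl22 among them (8.7%, against 6.57% of all genes). These comparisons share arrays with those against diestrus, so they are not independent of them.

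Without day 19 replicate 1, day 19 is replicate 2 alone, and 6 members passed the adjusted threshold in each of the successive comparisons. Against day 12 they were Mrpl16, Mrpl42, Mrpl46, Mrpl50, Mrps31 and Mrps35, all lower (8.7%, against 9.72% of all genes). For post-partum against day 19 they were Mrpl16, Mrpl22, Mrpl46, Mrps22, Mrps31 and Mrps35, all higher post-partum (8.7%, against 6.57%).

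Large and small subunit genes had similar averages on most arrays, and on several of these both averages lay close to 0. Each gene was centred on its mean over the 8 arrays, and the average of the 27 Mrps genes was taken from that of the 42 Mrpl genes. Large minus small was 0.031 and 0.042 in diestrus, 0.037 and -0.021 at day 12, 0.019 and -0.003 at day 19, and -0.185 and 0.081 post-partum. On 7 of the arrays the subunits therefore lay within 0.081 of each other, also on day 19 replicate 2, where Mrpl genes averaged -0.25 and Mrps genes -0.21 against diestrus. Post-partum replicate 2 was the exception, with Mrpl genes at -0.055 (21 of 42 above their diestrus mean) and Mrps genes at 0.17 (22 of 27). The other post-partum array had Mrpl genes at 0.12 (33 of 42) and Mrps genes at 0.076 (20 of 27), the opposite order.

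Taken over the 2 arrays of a state and set against diestrus, large minus small was -0.028 at day 12, -0.028 at day 19 and -0.089 post-partum, none larger in size than the spread between replicates (0.097, pooled SD over the 4 states). No p is given for this value, because it is a score over members chosen with earlier results of these data known. Leaving out Mrpl32 brought the post-partum arrays to -0.144 and 0.070. With the subunits by structure the post-partum difference was 0.012. That count moved Mrps30 and Mrps18a to the large subunit and added Dap3, Ptcd3 and Gadd45gip1, and without Ptcd3 it gave -0.049, with -0.147 and 0.075 on the post-partum arrays, against 0.0083 and 0.018 in diestrus.

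**Figure D3:**
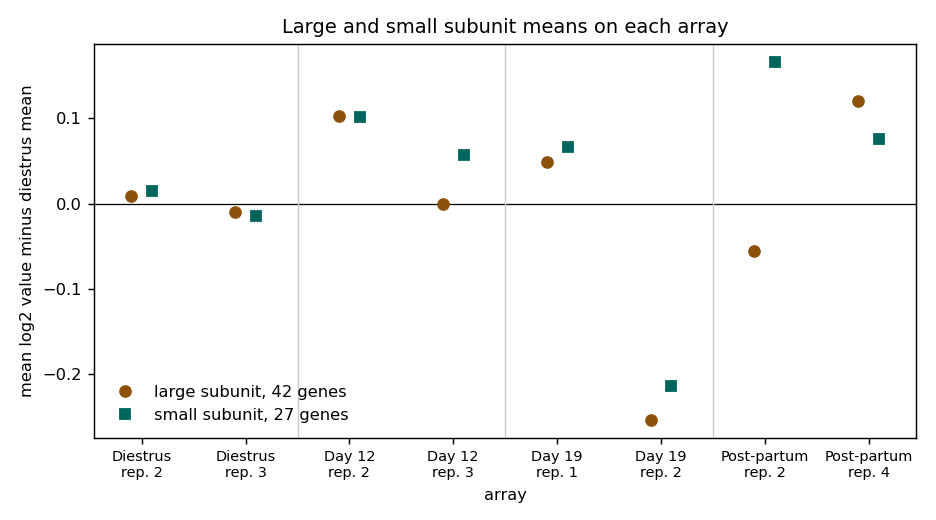
Mean log2 value minus the gene's diestrus mean for the 42 Mrpl genes (circles) and 27 Mrps genes (squares) on each of the 8 arrays. Both subunits are lowest on day 19 replicate 2 (-0.25 and -0.21), and they lie furthest apart on post-partum replicate 2 (-0.055 and 0.17).

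Over the 69 members the standard deviation of the difference between replicates was 0.152 for the diestrus pair, 0.153 for the day 12 pair, 0.245 for the day 19 pair and 0.451 for the post-partum pair. Over all genes it was 0.264, 0.239, 0.555 and 0.328 in the same order of states. This measure leaves out an offset that the members share: their median absolute difference between replicates was larger at day 19 (0.286) than post-partum (0.250). At day 19 the members differed by a shared offset: 62 of 69 were lower on replicate 2, with a median gap of 0.286, where 61.7% of all genes were lower and their median gap was 0.101. Day 19 replicate 2 was the lowest of the 8 arrays for 41 members (59.4%, against 32.1% of all genes) and the highest for 0, against 18.7%.

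Post-partum the members instead spread in both directions, with 36 higher on replicate 2 and 33 higher on replicate 4. Post-partum replicate 2 was the highest array for 24 members (34.8%, against 19.1% of all genes) and the lowest for 13 (18.8%, against 20.9%). Mrpl32 differed by -2.28, Mrpl12 by -1.33 and Mrpl34 by -0.82 between replicates 2 and 4, followed by Mrps24 (-0.67), Mrpl54, Mrpl11, Mrpl23 and Mrpl19. At the other end were Mrps14 (0.60), Mrps28, Mrpl36, Mrpl13 and Mrps16 (0.53). On replicate 2, 8 members were more than 0.5 below diestrus and 7 more than 0.5 above it, 21.7% of the tested members, against 13.9% of all genes. Of those below, 6 were Mrpl genes, and of those above, 4, where 42 of the 69 tested members are Mrpl genes.

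**Figure D4:**
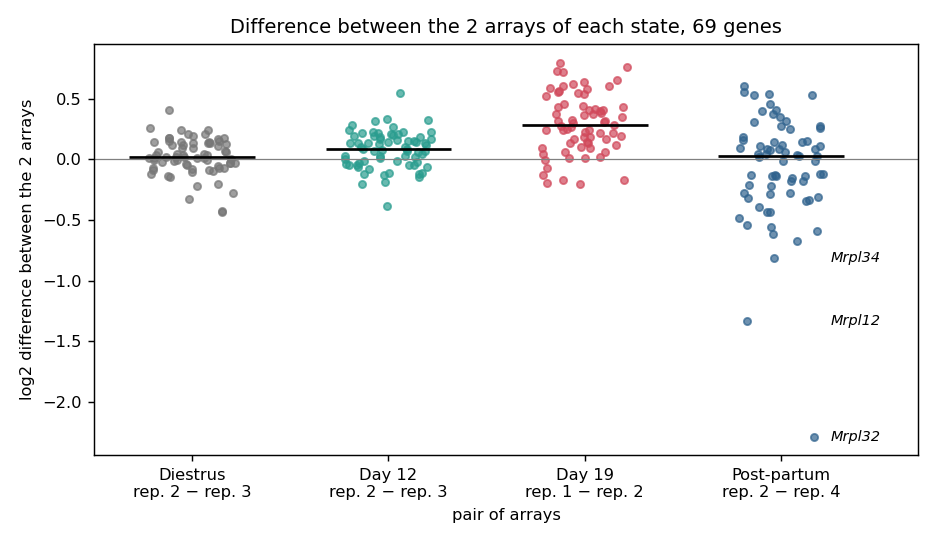
Difference in log2 value between the 2 arrays of each state for the 69 tested members (points, with random horizontal offset) and their median (bar). The day 19 points sit mostly above 0 (62 of 69), and the post-partum points spread widest, down to Mrpl32 at -2.28.

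Gene length and start region were set beside these gaps as a description. Over the 69 members, the day 19 gap (replicate 2 minus replicate 1) had a Spearman correlation of -0.38 with gene length in the reference, against -0.15 over 13855 genes, and the post-partum gap (replicate 2 minus replicate 4) one of 0.15, against -0.04. These correlations run across genes of one pair of arrays, and genes are not independent. The 11 members with an NRF1 element averaged -0.38 on post-partum replicate 2, but their median was -0.019, with Mrpl32 among them. The 22 with an ETS element had a median of 0.14 there and the 31 with neither one of 0.083. On day 19 replicate 2 the medians were -0.34, -0.16 and -0.25.

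The members were also split into those found in mitochondria only and those with a bacterial counterpart. At day 12, 24 of 27 mitochondria-only members were higher and 30 of 42 with a bacterial counterpart. At day 19 it was 6 of 27 and 11 of 42, and post-partum 18 of 27 and 29 of 42. Over all genes, 55.1%, 44.5% and 49.4% were higher in these 3 states. On day 19 replicate 2 the mitochondria-only members averaged -0.30 and the others -0.20. An F-test p under 0.05, before adjustment, was found for 3 members (Mrpl55, Mrpl13 and Mrps21), 4.35% of the members, against 5.81% of all genes. All 3 were among the 42 with a bacterial counterpart (7.14%), a class that holds most of the tested members.

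Of the subunits that go under other names, 3 were measured: Dap3 and Ptcd3 of the small subunit and Gadd45gip1 of the large. Ptcd3, an RNA-binding repeat protein, had 10.36 and 10.79 in diestrus, 9.51 and 9.59 at day 12, 9.79 and 9.35 at day 19, and 8.01 and 10.04 post-partum. Every later array was below diestrus, by -1.55 ± 0.55 (SE) post-partum. A second Ptcd3 probe set followed at day 19 only, with 9.48 and 8.76, against 9.60 and 9.57 in diestrus. At day 12 it had 9.75 and 9.36, and post-partum 9.85 and 9.46. Gadd45gip1 gave 0.16, -0.0036 and -0.016 at day 12, day 19 and post-partum.

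Genes that build and serve the mitochondrial ribosome averaged lowest on the same array, day 19 replicate 2. None passed the threshold in any comparison. Of 27 assembly and rRNA modification genes, 20 at day 12 were higher than diestrus, then 5 at day 19 and 12 post-partum. Of 19 translation factors and membrane docking genes, 14, 1 and 11 were higher. Of 18 mitochondrial tRNA synthetases, 13, 4 and 14 were higher, and of 21 genes of mitochondrial transcription and RNA processing, 15, 4 and 14. Over all genes, 55.1% at day 12 were higher, then 44.5% at day 19 and 49.4% post-partum. On day 19 replicate 2 these lists averaged -0.28, -0.41, -0.26 and -0.37 against diestrus, beside -0.24 for the ribosomal proteins, while on day 19 replicate 1 they averaged 0.069, 0.034, 0.018 and 0.13, beside 0.056.

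Among the assembly genes, Mterf4, which works with Nsun4 in maturing the large subunit, had 6.42 and 6.39 post-partum, against 6.04 and 6.05 in diestrus (0.36). Gtpbp10, a GTPase of large subunit assembly, went the other way, with 7.70 and 7.91 post-partum, against 8.45 and 8.38 in diestrus (-0.61). For both genes the post-partum arrays were clear of diestrus. Gatc, part of the enzyme that makes glutaminyl-tRNA in mitochondria, had 9.62 and 10.29 post-partum, against 10.56 and 10.51 in diestrus (-0.58). Letm1, an inner membrane protein whose yeast counterpart binds mitochondrial ribosomes, gave 0.11 post-partum and -0.25 at day 19. It had 8.43 and 8.14 on day 19 replicates 1 and 2, against 8.55 and 8.51 in diestrus, so most of the gap lay in replicate 2.

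The synthetases for serine and leucine differed most between post-partum and day 19. Sars2 had 7.41 and 7.13 post-partum, against 6.88 and 6.61 at day 19 (0.53), and Lars2 7.92 and 7.82, against 7.58 and 7.14 at day 19 (0.51). For both genes the lower day 19 value was that of replicate 2, so part of each difference lay in that array. Pde12, which removes poly(A) tails from mitochondrial RNA, had 7.05 and 6.69 post-partum, against 6.33 and 6.23 in diestrus (0.59). Tfb2m, a factor for starting mitochondrial transcription, had 8.35 and 8.53 post-partum, against 8.92 and 8.74 in diestrus (-0.39). The post-partum arrays of Pde12 were above both diestrus arrays, and those of this Tfb2m probe set below. A dimmer Tfb2m probe set was also lower, with 5.39 and 6.05 post-partum, against 6.95 and 6.27 in diestrus. Another dim one did not follow, with 5.51 and 6.04 post-partum, against 5.39 and 5.61 in diestrus.

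Of 10 regulators of mitochondrial gene expression, 6 at day 12 were higher than diestrus, then 2 at day 19 and 6 post-partum (all genes: 55.1%, 44.5% and 49.4%). An F-test p under 0.05 was found for 2, Myc and Pprc1, or 20% of the list, against 5.81% of all genes. Both are named here after their values were seen. Myc, a transcription factor of growth and of ribosome synthesis, had 6.89 and 7.18 at day 19, against 6.38 and 6.49 in diestrus (0.60), and lay at 6.38 and 6.60 post-partum (0.057). Pprc1, a coactivator related to PGC-1, had 6.69 and 6.48 post-partum, against 6.30 and 6.19 in diestrus (0.34).

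Beside the mitochondrial ribosome, the nuclear-encoded respiratory chain subunits had the same low array and the cytosolic ribosomal proteins did not. Of 71 respiratory chain genes, 42 at day 12 were higher than diestrus, then 3 at day 19 and 37 post-partum (all genes: 55.1%, 44.5% and 49.4%). They averaged -0.31 on day 19 replicate 2 and between -0.012 and 0.037 on the other 5 later arrays. Of 53 cytosolic ribosomal protein genes, 12, 23 and 30 were higher, and they averaged 0.0073 on day 19 replicate 2. At day 12 the mitochondrial ribosomal genes had a median of 0.074 and the cytosolic ones -0.095. The difference between the families was not tested. Markers of cardiomyocytes (-0.19), fibroblasts (-0.62), endothelial cells (-0.45) and mural cells (-0.54) were low on that array and macrophage (1.25) and MHC class II (2.43) markers high. Atrial markers were highest on day 19 replicate 1. The part of these cell types in the values of the mitochondrial lists was not tested.

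**Figure D5:**
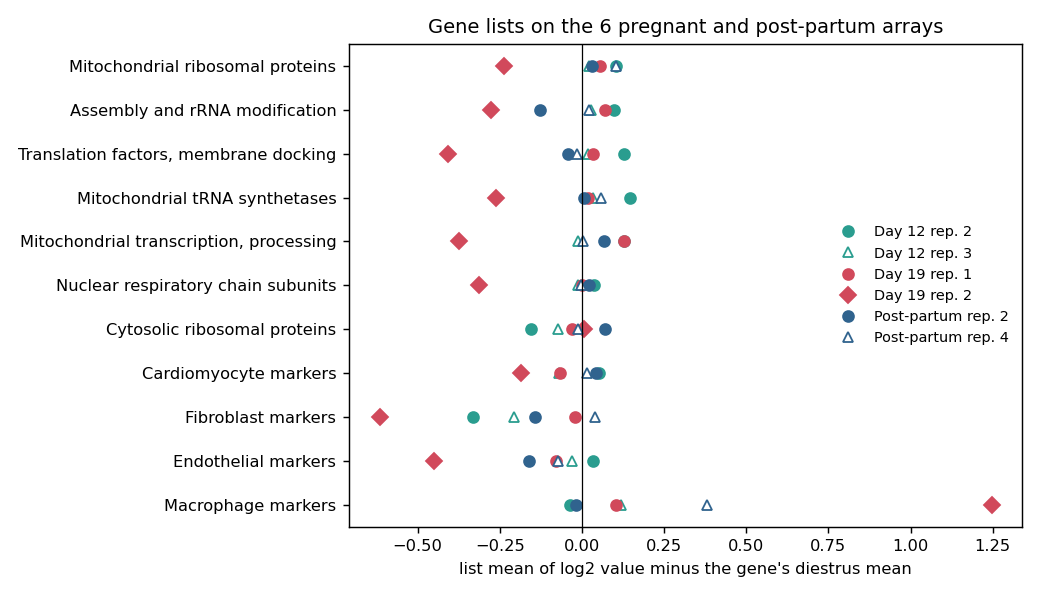
Mean log2 value minus the gene's diestrus mean of 11 gene lists on the 6 pregnant and post-partum arrays, one point per array. Day 19 replicate 2 (diamonds) is the lowest point of each mitochondrial list, from -0.41 for translation factors to -0.24 for the ribosomal proteins, it lies at 0.0073 for cytosolic ribosomal proteins, and it is the highest for macrophage markers at 1.25.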

How the data were processed

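Gene expression was measured on 8 one-colour Affymetrix arrays of mouse left ventricle. Each deposited value is a log2 expression level of 1 probe set. Per the submitters' processing notes, the authors obtained these log2 values by RMA with the Affymetrix Expression Console software. RMA equalises the arrays, so differences shared by most genes are reduced. Neither software versions nor a genome build is given in the sources used here. Per the labels' protocols, 100 ng of RNA was labelled.

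Of 34365 probe sets, 23521 had 1 gene symbol in the platform annotation, 1814 several and 9030 none listed. Entrez identifiers of 23328 matched a mouse gene table (GRCm38.p6), and 0 symbols changed. The probe set with the highest mean stood for a gene, which gave 22180 genes. Tests covered the 13872 genes with at least 1 group mean at or above 5.19, the median over all values. Array medians ran from 5.14 to 5.28, and the number of arrays limits the precision.

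All 8 arrays entered 1 linear model with a mean for each group, in limma 3.58.1 in R 4.3.3 (4 residual and 3.68 prior degrees of freedom), two-sided, with Benjamini-Hochberg adjustment over all genes tested and a threshold of 0.05. The model was tested on simulated data for day 19 against diestrus, in 20 runs with 200 changed genes. It recovered 52.6% of 2-fold and 94.8% of 4-fold changes, with a mean of 8 false calls. Every difference of a tested member between states was smaller than 2-fold, with log2 fold changes from -0.88 to 0.69 over the 5 comparisons. The recovery given is thus for larger changes than these. Titles of the samples gave the groups and replicate numbers.

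The members, gene lists and marker lists were chosen with earlier results of these data known. Named members are the 4 highest and 4 lowest by log2 fold change against diestrus, the 2 highest and 2 lowest between successive stages, the 5 with the smallest F-test p, and Mrpl12, Mrpl58, Mrps5, Mrps18a, Mrps18b, Mrps18c, Mrps30 and Mrps36. The 2 genes with the smallest F-test p were named from each supporting list. Members with large gaps between the arrays of a state were named after their values were seen. Alternatives covered the filter, the choice of probe set, scaling, the arrays and groups in the fit, the replicate number as a block, array weights, the variance prior and the assignment to subunits.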

Additional observations from a re-analysis of the deposited data

How the results depend on the processing

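The medians and splits of the members, the subunit difference, the named genes and the counts past the threshold were recomputed under each alternative. The labels' pairing by replicate number could be tried for day 12 against diestrus only (numbers 2 and 3, correlation of deviations 0.22 over 2 pairs, too few to settle whether the numbers pair the samples, and no label says that they do); with that block 18 genes passed and 0 members, against 0 genes without it. For day 12, 1 gene passed with array weights. For post-partum against day 19, 1 gene passed with a stricter filter, with quantile normalization or with a trended and robust variance. With each array left out in turn, genes past the threshold numbered 0 to 2 at day 12, 0 to 1311 at day 19, 0 to 3 post-partum, 0 to 1374 for day 19 against day 12 and 0 to 929 for post-partum against day 19. Members past it numbered 0 to 3 at day 19 and 0 to 6 in each successive comparison, and 0 at day 12 and post-partum. The members' median ranged from -0.22 to 0.086 at day 19, from -0.29 to 0.0089 for day 19 against day 12 and from 0.069 to 0.30 for post-partum against day 19, and the members above 0 from 12 to 47 and from 12 to 38 in the first and second of these. Day 19 replicates 1 and 2 set each of these extremes, except the 12 of day 19 against day 12 (without day 12 replicate 3). At day 12 the median stayed between 0.034 and 0.12 and post-partum between 0.081 and 0.12. Post-partum, large minus small ranged from -0.22 to 0.044, Mrpl32 from -2.03 to 0.26 and Mrpl58 from -0.22 to 0.061, and Mrpl32 against day 19 from -1.88 to 0.41. Mrpl20 at day 19 ranged from -0.0085 to 0.42. By structural position, large minus small was 0.012 post-partum. Mrps18c at day 19 was 0.11 with the mean of its probe sets. The causes were not tested. Alternatives for the counts above 0, the structural assignment without the added subunits or Ptcd3, and the one without Mrpl32, were chosen after seeing the data. Precision is limited by 2 arrays per state.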
